A study of Mus musculus with 6 samples.

Results

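Myelin is the sheath of tightly wound membrane that oligodendrocytes lay around axons in the brain. The 9 myelin genes described here, of 23366 genes in the expression table, were taken by symbol from a list of compact myelin and mature oligodendrocyte genes, and all 9 were found: Mbp, Mog, Mag, Cnp, Mobp, Mal, Opalin, Cldn11 and Ugt8a. RNA of the brain cortex was sequenced from 3 microglia-depleted mice, named A4, A5 and A6, and from 3 control mice, A1 to A3, each mouse giving 1 library. The depleted mice were CX3CR1-CreERT2+/- iDTR+/- animals on a C57BL/6 background, in which tamoxifen (TAM) switches on the diphtheria toxin receptor in Cx3cr1-expressing cells and diphtheria toxin (DT) then kills them, and they were taken at d10 after depletion, when microglia had repopulated the brain. The control mice were littermates with the Cre allele (CX3CR1-CreERT2+/-) but without iDTR. Tamoxifen was given to both groups, and the study's methods do not say whether the control mice of this experiment received DT. The mice were adult, of an age not given for these animals, and the text of the study places the tissue in the frontal cortex. The question put to the myelin genes was whether their RNA differed between the groups at d10.

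Oligodendrocytes arise from precursor cells under the control of transcription factors such as SOX10, OLIG2 and MYRF, and then switch on a large set of genes for myelin proteins and lipids. Compact myelin is held together by membrane-associated proteins such as MBP, while MAG, MOG, CNP and claudin 11 sit at its inner or outer surface, in its cytoplasmic channels or at its junctions. Galactolipids, made from ceramide by the enzyme that Ugt8a encodes, are abundant in the sheath.

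Every one of the 9 genes was lower on average in the depleted mice, with a difference of means from -0.834% (Mal) to -38.0% (Ugt8a) of the control mean, and none of them passed the threshold of an adjusted p under 0.1. The test was limma on log2(FPKM + 1), where FPKM counts fragments per length of transcript and per depth of the library, with Benjamini-Hochberg (BH) adjustment over the 14385 genes whose mean reached 0.5 FPKM, and it called 0.0278% of these genes. At an unadjusted p under 0.05, 5 of the 9 were lower in depleted mice (Mbp, Cnp, Mag, Opalin and Ugt8a), against 5.74% of all genes tested, and 0 were higher, against 4.79% of all genes. The count of 5 rested on the mice and the filter used: it was 2 without A1 (2.98% of all genes), 3 without A2 (4% of all genes), 4 without A5 (7.38%), and 1 with no filter on low values (4.48% of 23366 genes). Those 5 and Mobp, 6 in all, had every depleted mouse below every control mouse, against 9.38% of all genes. The median log2 fold change over the 9 was -0.30, beside -0.0085 over all genes tested. Fewer oligodendrocytes, less RNA in each oligodendrocyte and another mix of cell types or regions in the piece cannot be told apart in bulk tissue. The mice of a group are separate animals, and each p-value sets the difference between the groups against the spread between mice.

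**Figure D1:**
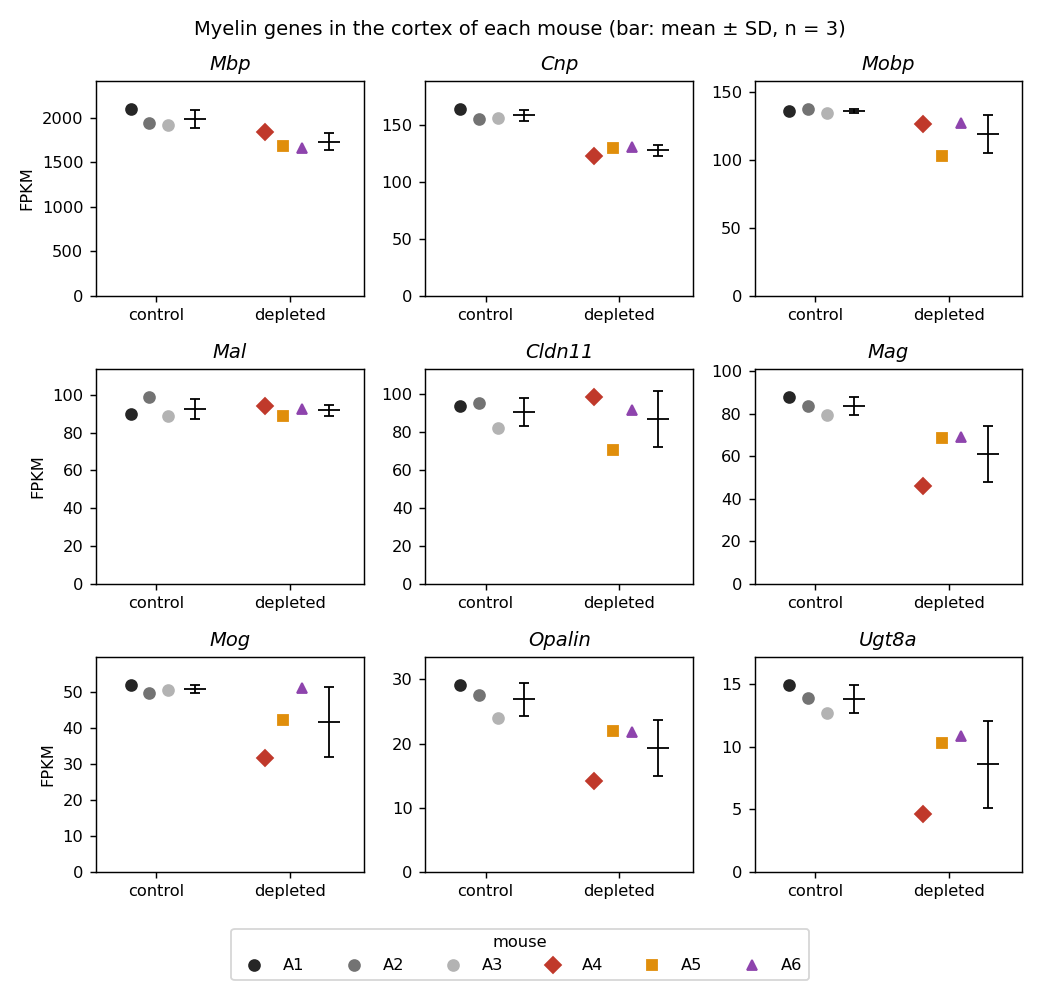
FPKM (linear axes from 0) of the 9 myelin genes in each of the 3 control mice (A1 to A3) and 3 depleted mice (A4 to A6), with the mean ± SD of each group to the right of its points. Every depleted mouse lies below every control mouse for Mbp, Cnp, Mobp, Mag, Opalin and Ugt8a, and A4 stands lowest for Cnp, Mag, Mog, Opalin and Ugt8a.

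Among the genes of compact myelin, Mbp, which encodes myelin basic protein, was by far the most abundant. It was at 2100.4, 1939 and 1925 FPKM in the control mice A1, A2 and A3, and at 1839, 1689 and 1663 FPKM in the depleted mice A4, A5 and A6. All 3 depleted mice were below all 3 control mice, and the group means of 1988 ± 97.4 FPKM and 1730.4 ± 94.7 FPKM (SD, n = 3 each) differed by more than either SD. The log2 fold change of Mbp was -0.20 with an SE of 0.073 (limma, BH-adjusted p = 0.415), and the exact two-sided permutation test over the mice gave p = 0.1, the smallest value that 3 mice against 3 can reach.

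Mobp, which encodes a small basic protein of compact myelin, was at 136, 137 and 134 FPKM in the controls, and at 126, 102 and 127 FPKM in the depleted mice. The 3 control mice were almost level, A4 and A6 lay a little below them, and A5 was the low mouse. Its log2 fold change was -0.20 with an SE of 0.092 (limma, BH-adjusted p = 0.490), and was -0.10 without A5. Mal, which encodes a proteolipid of the sheath, showed no separation of the groups, at 90.2, 98.9 and 89.1 FPKM in control mice and 94.3, 88.8 and 92.6 FPKM in depleted mice. Its log2 fold change was -0.011, with a 95% interval from -0.17 to 0.15 (limma, BH-adjusted p = 0.969).

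Cnp, Mag, Mog, Opalin and Cldn11 encode proteins of the inner and outer membranes and the junctions of the sheath. CNP, a phosphodiesterase of the cytoplasmic channels of myelin, had the lowest unadjusted p of the 9. Cnp was at 164, 155 and 156 FPKM in the controls, and at 122, 130.2 and 131 FPKM in depleted mice. The groups were well separated, with means of 159 ± 4.88 and 128 ± 4.64 FPKM (SD, n = 3 each), a difference of -19.4%. Its log2 fold change was -0.31 with an SE of 0.065 and a 95% interval from -0.46 to -0.16 (limma, unadjusted p = 0.00124, BH-adjusted p = 0.307), and the value without A4 was -0.28. Cnp overlaps Dnajc7 on the opposite strand, which was at 58.5 to 71.7 FPKM, and strand use in the counting is not given in the sources used here.

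MAG is an adhesion protein of the innermost myelin membrane, next to the axon. Mag was at 87.8, 83.6 and 79.1 FPKM in the controls, and at 45.9, 68.5 and 69.0 FPKM in depleted mice. All depleted mice were below the controls, A4 most of all. The log2 fold change was -0.47 with an SE of 0.15 (limma, BH-adjusted p = 0.386), and it was -0.28 without A4. Opalin, an oligodendrocyte membrane glycoprotein gene, had nearly the same pattern, at 29.1, 27.6 and 24.0 FPKM in control mice and 14.2, 21.9 and 21.8 FPKM in depleted mice. Its log2 fold change of -0.48 with an SE of 0.16 (limma, BH-adjusted p = 0.396) was also -0.28 without A4.

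MOG is a glycoprotein of the outermost myelin membrane. Mog was at 51.8, 49.6 and 50.5 FPKM in the controls, and at 31.6, 42.2 and 51.1 FPKM in depleted mice. Here the groups overlapped, since A6 was level with the control mice while A4 and A5 were below them. The log2 fold change was -0.30 with an SE of 0.15 (limma, BH-adjusted p = 0.518, exact permutation p = 0.3), and without A4 it was -0.12. Cldn11, which encodes claudin 11 of the tight junctions between myelin layers, was at 93.7, 95.1 and 82.0 FPKM in control mice and 98.2, 70.2 and 91.4 FPKM in depleted mice. Only A5 was below the control mice for Cldn11, and A4 was above them. Its log2 fold change was -0.071, with a 95% interval from -0.36 to 0.22, and it was 0.072 without A5 and -0.17 without A4.

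Ugt8a, the gene of the galactosyltransferase that makes the galactolipids of myelin, was the least abundant of the 9 and showed the largest difference. It was at 14.9, 13.9 and 12.7 FPKM in the controls, and at 4.60, 10.3 and 10.9 FPKM in depleted mice. All 3 depleted mice were below the controls, and A4 was far below A5 and A6. The group means were 13.8 ± 1.11 and 8.59 ± 3.46 FPKM (SD, n = 3 each), a difference of -38.0%. The log2 fold change was -0.70 with an SE of 0.26 (limma, BH-adjusted p = 0.418), and was -0.36 without A4.

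**Figure D2:**
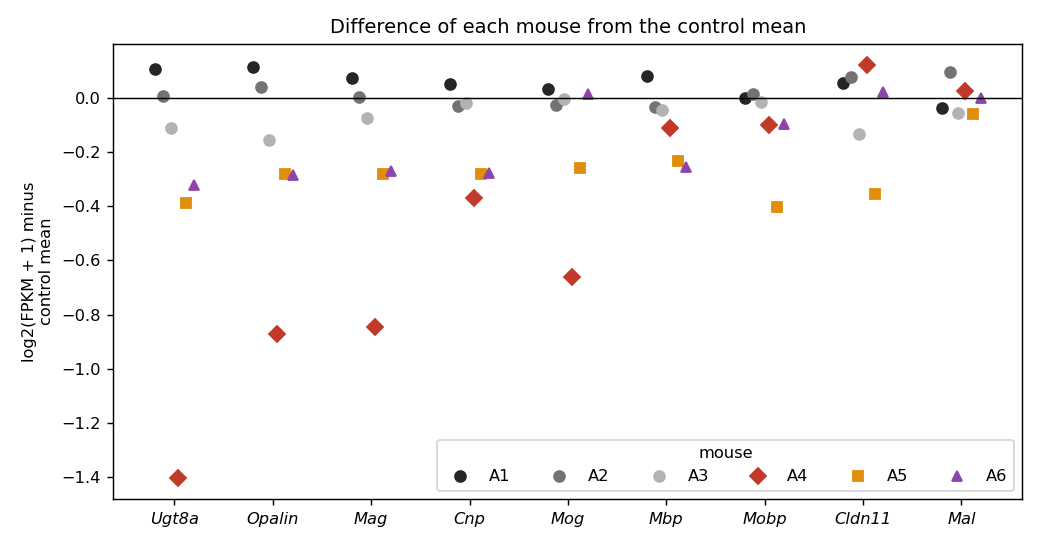
Difference of each mouse from the control mean, on the log2(FPKM + 1) scale, for the 9 myelin genes ordered by their log2 fold change. A5 and A6 form a band near -0.28 for Opalin, Mag and Cnp, while A4 runs from -1.40 for Ugt8a to 0.12 for Cldn11.

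The 3 depleted mice differed in how evenly the myelin genes stood below the controls. Against the control mean, the median log2 difference over the 9 genes stood at -0.37 for A4, -0.28 for A5 and -0.26 for A6, and 0.056, 0.0066 and -0.056 in the control mice A1, A2 and A3. The SD among the 9 genes within a mouse was 0.51 in A4, against 0.10 in A5, 0.15 in A6 and 0.046 to 0.054 in the control mice. Each control mouse is part of the control mean and the depleted mice are not, which narrows the control values by construction. In A5 all 9 genes were below every control mouse, in A4 there were 7 and in A6 there were 6. The share of all genes below every control was not worked out for single mice, so these counts have no background.

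In A4 the genes lay in separate ranges. Ugt8a, Opalin, Mag, Mog and Cnp stood between -1.40 and -0.37 on the log2 scale, Mbp and Mobp were at -0.11 and -0.10, and Mal and Cldn11 were above the control mean, at 0.026 and 0.12. In A5 and A6, Ugt8a, Opalin, Mag, Cnp and Mbp lay between -0.39 and -0.23. Without A4, 6 of the 9 genes were lower at an unadjusted p under 0.05 (the 5 above and Mobp), against 7.19% of all genes, where leaving out A1, A2 or A5 gave the lower counts above. Also without A4, 0 passed the adjusted threshold, and the median over the 9 was -0.25.

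Added together, the 9 genes made up 0.699, 0.662 and 0.626% of all summed FPKM in the control mice A1, A2 and A3, and 0.593, 0.563 and 0.559% in the depleted mice A4, A5 and A6. The depleted mice were all below the control mice, and the sum is mostly Mbp, which made up 73.7 to 77.4% of it. Without Mbp, the other 8 genes summed to 667, 661 and 628 FPKM in control mice and 538, 535 and 594 FPKM in depleted mice.

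The promoters of these genes are shown because MYRF, the regulator of myelin genes, binds a known motif. It was searched here as CTGGNAC, with any base at N. Of the 8 genes whose promoters were read, 3 hold a match just before their start. The sequences are the 250 bases before the start site of each gene in RefSeq (GRCm38.p6), given 5′ to 3′ on the strand of the gene, with each match to CTGGNAC on either strand in capitals. The windows are chr7:30914864-30915113 (minus strand) for Mag, chr11:100574689-100574938 (plus) for Cnp, chr17:37023399-37023648 (minus) for Mog, and chr3:125938653-125938902 (minus) for Ugt8a, which is printed as the gene with the largest difference and holds no match.
Mag: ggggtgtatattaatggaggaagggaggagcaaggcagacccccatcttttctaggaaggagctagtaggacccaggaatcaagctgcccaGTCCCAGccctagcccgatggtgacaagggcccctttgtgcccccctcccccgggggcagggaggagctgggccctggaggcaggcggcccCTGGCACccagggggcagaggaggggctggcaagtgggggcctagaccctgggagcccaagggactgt
Cnp: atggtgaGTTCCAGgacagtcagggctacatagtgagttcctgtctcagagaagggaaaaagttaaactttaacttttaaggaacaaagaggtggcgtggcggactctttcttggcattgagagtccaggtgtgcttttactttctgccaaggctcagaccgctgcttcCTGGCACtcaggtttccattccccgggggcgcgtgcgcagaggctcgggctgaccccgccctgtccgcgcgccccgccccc
Mog: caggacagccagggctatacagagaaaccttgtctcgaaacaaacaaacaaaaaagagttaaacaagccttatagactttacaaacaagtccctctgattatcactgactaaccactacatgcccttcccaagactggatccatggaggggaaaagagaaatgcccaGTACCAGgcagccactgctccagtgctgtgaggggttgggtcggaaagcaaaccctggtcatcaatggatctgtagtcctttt
Ugt8a: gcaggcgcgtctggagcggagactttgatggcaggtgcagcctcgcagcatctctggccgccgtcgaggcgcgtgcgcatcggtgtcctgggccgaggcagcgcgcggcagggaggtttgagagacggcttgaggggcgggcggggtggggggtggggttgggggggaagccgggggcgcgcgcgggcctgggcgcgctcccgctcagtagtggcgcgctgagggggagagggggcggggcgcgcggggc

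All of these genes are protein-coding, and in GENCODE M21 (GRCm38) Mag spans chr7:30899176-30914873 and Mog chr17:37010743-37023398, Opalin chr19:41061710-41077113, Mal chr2:127633226-127656695 and Ugt8a chr3:125865271-125938619, all on the minus strand. Cnp at chr11:100574904-100591729, Mobp at chr9:120149707-120181484 and Cldn11 at chr3:31149920-31164324 lie on the plus strand. Counted in bases from the start site, with negative values before it, the matches began at -159 and -68 in Mag, at -243 and -81 in Cnp and at -83 in Mog. The matches at -68 in Mag, -81 in Cnp and -83 in Mog have C or T at N, when read as CTGGNAC. Those at -159 in Mag and -243 in Cnp have G or A there. Of all 32851 RefSeq promoter windows of this length, 16.1% held CTGGNAC with any base at N. The letters ACAAT, a form of the SOX motif, were searched on both strands. They were in 0 of the 8 windows and in 27.7% of all windows, so that none overlapped a match to CTGGNAC. Other forms of the SOX motif were not searched. Mag, Cnp and Mog, with the motif, had log2 fold changes from -0.47 to -0.30, and Opalin, Ugt8a, Mobp, Cldn11 and Mal, without it, from -0.70 to -0.011. These ranges overlap, and a match describes the letters of the window only.

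Other genes of myelin and of the oligodendrocyte lineage were read from further lists, and none of their genes passed the adjusted threshold. Of 109 genes tested in 6 lists that hold none of the 9, 84 (77.1%) were lower on average in depleted mice, against 52.0% of all genes. At an unadjusted p under 0.05, 15 (13.8%) were lower, against 5.74% of all genes tested, and 0 were higher, against 4.79%. The groups did not overlap for 24 (22.0%) that were lower, against 9.38% of all genes tested, and for 2 that were higher, Apod and Fyn. The share of all genes that were higher without overlap was not worked out, so the count of 2 has no background. Without A4, 14 of the 109 were lower at an unadjusted p under 0.05, against 7.19% of all genes tested. The median log2 fold change over the 109 went from -0.14 to -0.076.

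**Figure D3:**
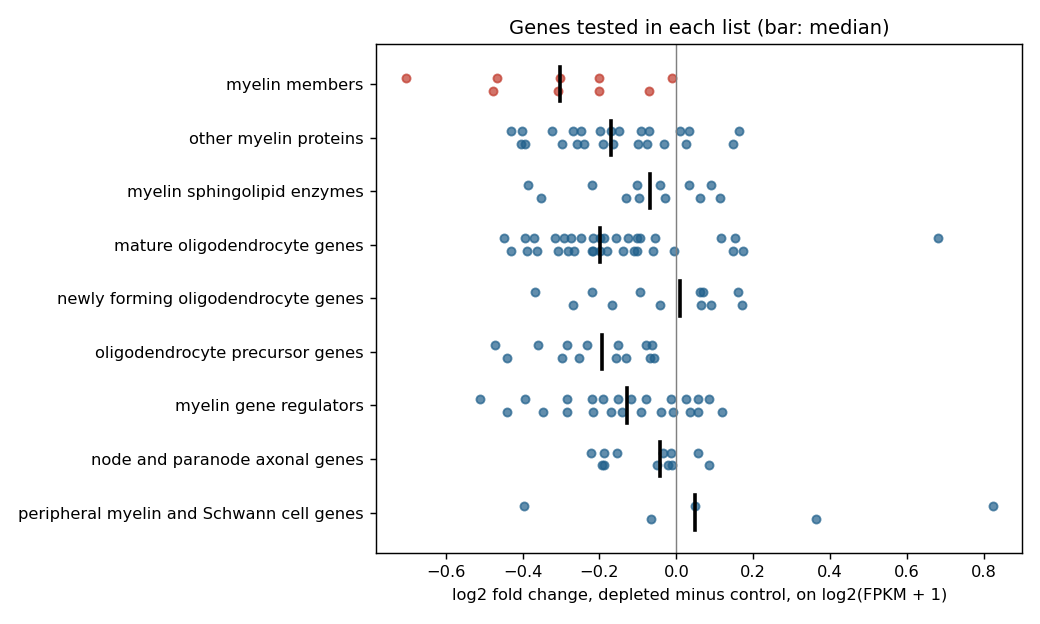
Log2 fold change (depleted minus control, on log2(FPKM + 1)) of each gene tested in the myelin genes and in 8 other lists, with the median of each list as a bar. The median is -0.30 for the myelin genes, -0.20 for mature oligodendrocyte genes, -0.19 for precursor genes and 0.0097 for genes of newly forming oligodendrocytes.

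In the list of other myelin proteins, 20 of 25 genes were lower on average, with a median log2 fold change of -0.17 that was -0.067 without A4. The list ran from Gjb1, the connexin 32 gene, at -0.43 to the tetraspanin gene Cd9 at 0.16. Of the 25, 6 were lower without overlap, against 9.38% of all genes tested. At an unadjusted p under 0.05, 2 of the 25 were lower, against 5.74% of all genes tested. Pllp, which encodes plasmolipin, was among both, at -0.41.

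The lipid enzymes that work beside Ugt8a were mixed. Of 12 genes for myelin sphingolipid enzymes, 8 were lower on average and the median was -0.069. Gal3st1, which adds sulfate to galactosylceramide to make sulfatide, had a log2 fold change of -0.35, and Fa2h, which makes the hydroxylated fatty acids of these lipids, was lowest at -0.39. Those genes and Gltp, a glycolipid transfer protein gene at -0.22, were the 3 of the list at an unadjusted p under 0.05. Each had all depleted mice below all control mice. Of all genes tested, 5.74% were lower at that threshold and 9.38% were lower without overlap. Galc, which breaks galactosylceramide down, was highest at 0.11, and Psap, the prosaposin gene and the most abundant, was at 0.061.

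Among mature oligodendrocyte genes, 30 of 35 were lower on average, with a median of -0.20 that was -0.067 without A4. Qdpr, which encodes dihydropteridine reductase and was the most abundant, was at -0.22, and Josd2 was lowest at -0.45. Apod, the apolipoprotein D gene, was the highest, at 94.9, 89.8 and 88.4 FPKM in control mice and 274, 115 and 99.3 FPKM in depleted mice. Its 3 depleted mice were all above the control mice, with A4 far above the rest, and its log2 fold change was 0.68 with an SE of 0.32 (limma, BH-adjusted p = 0.499).

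Of 12 genes of newly forming oligodendrocytes, 6 were lower and 6 higher on average, from Enpp6 at -0.37 to Neu4 at 0.17, with Bcas1, the most abundant, at -0.27. The median of this list was 0.0097, and -0.058 without A4. All 14 precursor genes were lower on average, with a median of -0.19 that was -0.12 without A4. Pdgfra, the growth factor receptor that marks precursors, was at 8.37, 9.01 and 8.27 FPKM in control mice and 6.16, 7.02 and 7.17 FPKM in depleted mice, with no overlap, and its log2 fold change was -0.30 with an SE of 0.10 (limma, BH-adjusted p = 0.400). C1ql1 was lowest at -0.47, Lhfpl3 highest at -0.059, and Olig1, the most abundant, was at -0.44.

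Of 24 genes for regulators of myelin genes, 18 were lower on average, and the median was -0.13 with and without A4. Sox10, a transcription factor of the whole lineage, was at 16.0, 13.6 and 14.2 FPKM in control mice and 10.8, 11.9 and 9.89 FPKM in depleted mice, so that its groups were separate and A4 did not stand apart. The log2 fold change of Sox10 was -0.39 with an SE of 0.10 (limma, BH-adjusted p = 0.370). Myrf overlapped between groups at a log2 fold change of -0.092, and so did Olig2 at -0.15. Nkx6-2 was lowest at -0.51, Nkx2-2 highest at 0.12, and Lingo1, the most abundant, at -0.17. The axon side of the sheath was read from 12 node and paranode genes, with a median of -0.043, or 0.010 without A4, and Kcna1, a potassium channel gene of the juxtaparanode, was highest at 0.086. Of 9 genes for peripheral myelin and Schwann cells, 5 passed the filter, and of these 2 were lower on average, 0 had an unadjusted p under 0.05, and the groups overlapped for all 5, with a median of 0.049.

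Over the 6 mice, the gene outside the 9 whose log2 level was most like the mean of their standardised levels was Tpp1, which encodes a lysosomal peptidase, at a Pearson r of 0.997 among the 9435 genes that averaged 5 FPKM or more. The next were Nfix (0.996), Gm14322 (0.990), Ssbp2 (0.983), Safb2 (0.982), Twf2 (0.977), Pnkd (0.973), Dirc2 (0.970), P2ry12 (0.970) and Coro1b (0.969). P2ry12, a purine receptor gene of homeostatic microglia, was at 9.57, 10.2 and 8.50 FPKM in control mice and 7.18, 6.45 and 7.91 FPKM in depleted mice. These r values describe 6 mice that share their libraries and their 2 groups, and they carry no test. Of 83 ranked genes from the oligodendrocyte lists, 3 stood in the first 100 (Fa2h, Pdgfra and C1ql1), and their median r was 0.53, beside 0.045 for all genes ranked.

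The tissue held markers of several cell types, and some lists moved with the groups or with A4. Libraries held about 7.15 to 20.6 M fragments, estimated from the steps of low values, and the 3 depleted libraries (7.15 to 13.7 M) were shallower than the 3 control libraries (14.6 to 20.6 M). The fewest fragments behind a value of the 9 genes were about 236, for Ugt8a. Summed FPKM of 12 interferon response genes was 132 to 157 in control mice and 817 in A4, 233 in A5 and 273 in A6, and the 10 microglia markers summed to 133 to 158 in control mice and 224, 149.9 and 195 in A4, A5 and A6. Gfap, the astrocyte intermediate filament gene, was at 64.5 to 88.3 FPKM in control mice, while A4 was at 300.3, A5 at 109 and A6 at 120.1 FPKM, at a log2 fold change of 1.00 with an SE of 0.34 (limma, BH-adjusted p = 0.396). The 10 choroid plexus markers summed to 169.9 to 328 in control mice and 47.5 to 72.9 in depleted mice. That sum is mostly Ttr, at 173, 314 and 160 FPKM in control mice and 64.3, 40.9 and 59.9 FPKM in depleted mice. Of the 7 choroid plexus markers tested, all were lower on average, and 2 were lower without overlap, against 9.38% of all genes tested. The 12 neuron markers overlapped between the groups, at 3323 to 3711 in control mice and 3143 to 3521 in depleted mice, and so did the 10 astrocyte markers, at 1211 to 1359 in control mice and 1215 to 1332 in depleted mice. The astrocyte markers went both ways, since 7 of the 10 were lower on average, with a median of -0.14. The groups did not overlap for 2 that were lower (Aldoc and Gja1, both at -0.19), against 9.38% of all genes tested. They also did not overlap for 2 that were higher (Gfap and Sox9), a count with no share over all genes to set beside it. In A4 the median log2 difference was -0.45 over 10 striatal markers, -0.41 over 10 thalamic markers and -0.26 over the node genes, beside -0.092 over the neuron markers, while in A5 and A6 these medians lay between -0.056 and 0.12. The part of depth, of these other cell types and regions, and of A4 in the values of the 9 genes was not tested, beyond the values without A4.

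**Figure D4:**
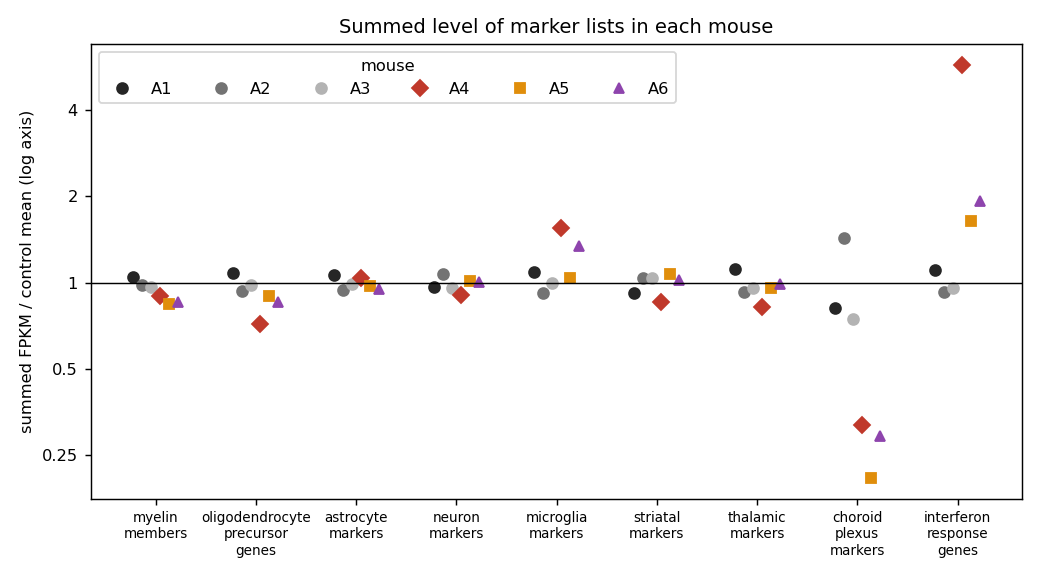
Summed FPKM of the myelin genes and of 8 marker lists in each mouse, divided by the mean of the 3 control mice, on a log axis. The sum of the myelin genes, which is mostly Mbp, lies within a narrow range in the 3 depleted mice, though single genes spread widely in A4. The interferon response genes are highest in A4. The sum of the choroid plexus markers, which is mostly Ttr, is low in all 3 depleted mice.

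Base composition also moved with the groups over all genes. When all genes with a known GC content were put in 8 equal bins, the median log2 fold change ran from 0.025 in the bin of lowest GC content, which held Ugt8a, to -0.12 in the bin of highest, which held none of the 9. The bin of Mag had a median of -0.063 and that of Mbp, Cnp and Mobp one of -0.020. With this trend removed, a correction added after the data were seen, the log2 fold changes were -0.74 for Ugt8a, -0.51 for Opalin, -0.40 for Mag, -0.33 for Mog, -0.29 for Cnp, -0.21 for Mobp, -0.17 for Mbp, -0.096 for Cldn11 and -0.031 for Mal, so that each kept its sign.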

How the data were processed

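Brain cortex RNA of 3 control and 3 depleted mice was measured by poly(A)-selected paired-end RNA-seq. The authors aligned reads with TopHat, quantified known transcripts with RSEM, applied TMM scaling and deposited FPKM values per gene symbol; the labels name the build mm9, and tool versions are not given in the sources used here. Groups came from the labels, which give no batch, litter or pairing.

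FPKM values were taken to log2(FPKM + 1), so that fold changes of low genes are understated. Genes averaging 0.5 FPKM or more (14385 of 23366) went into limma 3.58.1 under R 4.3.3 (eBayes with trend, two-sided, BH adjustment, threshold 0.1, no covariate). Single genes were also compared by the exact two-sided permutation test over the mice. Fragments per library were estimated from the spacing of low values. Python 3.11.15 with numpy 2.4.6, pandas 2.3.3, scipy 1.17.1 and matplotlib 3.10.9 was used elsewhere.

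GENCODE M21 (GRCm38) gave GC content to 21732 genes by symbol (93.9% of those tested), and promoters from RefSeq (GRCm38.p6). Coordinates are of GRCm38, not of the build of the files. The promoter of Mbp was not used here.

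All 9 genes are named, with Sox10, Myrf, Olig2, Pdgfra and Gfap, the highest, lowest and most abundant gene of each oligodendrocyte list, and the 10 genes most alike over the mice. Pllp, Gal3st1, Gltp, Fyn, Kcna1, Aldoc, Gja1 and Sox9 were named after their values were seen, as were Fa2h, Pdgfra and C1ql1 in the ranking. Results of some genes that this rule also covers are not reported here. The members and lists were chosen with earlier results of these data known. The alternatives tried were other scalings, other eBayes settings, array weights, a stricter threshold of 0.05, a pseudocount of 0.1, a higher filter of 1 FPKM or none, each mouse left out, and a GC correction added after the data were seen.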

Additional observations from a re-analysis of the deposited data

How the results depend on the processing

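Over 15 alternative fits, 0 of the 9 genes passed the threshold in any, the lowest adjusted p being 0.181 (Cnp, without A4), and the median log2 fold change over the 9 stayed between -0.33 and -0.24, the latter with array weights. Of 135 fitted values, 130 were below 0. With a mouse left out, Mal ran from -0.039 to 0.036, being above 0 without A2 (0.036) and A5 (0.013), and Cldn11 ran from -0.17 to 0.072, above 0 without A5. Mal was also above 0 with quantile normalization (0.0032). With quantile normalization Mbp was at exactly 0 by construction, since it holds the same rank in every mouse. The count of all genes past the threshold was 4, against 2 with no filter, 2 with eBayes without trend, 20 with array weights, and 2 (without A1) to 29 (without A5) when a mouse was left out, with 8 without A6. With the GC correction, 639 genes were lower and 636 higher at an unadjusted p under 0.05, against 826 and 689. Ugt8a had the fewest estimated fragments of the 9, about 236 at the lowest. The part of depth in its values was not tested. With 3 mice a group, a difference as small as that of Mal could not be told from 0. No paired analysis was possible because the labels give the groups no shared replicate numbers.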
